A study of Mus musculus with 768 samples.

Results

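The 10 genes described here encode glutathione peroxidases (*Gpx1*, *Gpx3*, *Gpx4*, *Gpx8*), superoxide dismutases (*Sod1*, *Sod2*, *Sod3*), the selenium carrier selenoprotein P (*Sepp1*, now *Selenop*), a glutathione S-transferase (*Gstm1*) and the stress-induced nuclear protein *Nupr1*. They were taken by symbol from the 24490 endogenous genes of the deposited tables, and all 10 were found. Across mesenchymal cells sorted from mouse mammary tumors, these genes did not move as 1 block. *Nupr1* and *Sod3* were lower in vascular than in matrix cells, *Nupr1*, *Sod3*, *Sepp1* and *Gstm1* were lower in *Top2a*-positive than in matrix cells, and *Gpx1*, *Gpx4* and *Sod1* had log2 differences between -0.42 and 0.33 in all 3 comparisons, none of which passed the test.

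The cells came from 2 mammary tumors of 14-week-old FVB/N-Tg(MMTVPyVT)634Mul/J mice, 1 plate per tumor, and all cells share this genotype and age with no further treatment. In this model the mouse mammary tumor virus promoter drives the polyoma middle T antigen in mammary epithelium. The sort was by negative markers alone, and whether sorted cells carried the transgene's expression was not tested here. Cells negative for EpCAM, CD45, CD31 and NG2, which mark epithelial cells, leukocytes, endothelial cells and pericytes, were labeled cancer-associated fibroblasts (CAFs) and sequenced 1 per well by Smart-seq2, a full-length method without molecular identifiers. The tumor is the replicate (n = 2), and tumor and plate cannot be told apart.

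Of 768 wells, 41 with fewer than 10000 endogenous reads were left out, 11 of tumor 1 and 30 of tumor 2. Depth of the cells kept ranged from 10281 to 838772 reads, with a median of 219264, in tumor 1. In tumor 2 it ranged from 10476 to 1190516 reads, with a median of 198180. A cell with *Top2a*, a DNA topoisomerase of dividing cells, at 10 RPKM (reads scaled to gene length and to the reads of the well) or more was called *Top2a*-positive. Of the rest, a cell was called vascular with *Rgs5*, a regulator of G protein signaling typical of mural cells, at 100 RPKM or more and above *Dcn*, and matrix with *Dcn*, the collagen-binding proteoglycan decorin, at 100 RPKM or more and above *Rgs5*. Vascular cells made up 63.3% and 59.6% of the cells kept in tumors 1 and 2, and there were 86 and 81 matrix and 30 and 35 *Top2a*-positive cells, and 21 and 27 cells that were low in both markers. None of the 10 genes was used for these classes. Only 10 cells lay within 2-fold of the *Rgs5* limit and 26 of the *Dcn* limit, whereas 24 lay within 2-fold of the *Top2a* limit, and 59 of the *Top2a*-positive cells were *Rgs5*-high.

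Without *Rgs5* and *Dcn*, the genes that set the classes, the other 9 vascular markers summed to a median of 3387 and 3858 RPKM in vascular cells of the 2 tumors against 57.3 and 52.6 in matrix cells. The other 9 matrix markers summed to medians of 4559 and 3860 RPKM in matrix cells against 5.64 and 7.28 in vascular cells. Of 7 cycling markers other than *Top2a*, the sum reached 100 RPKM in 22 of 30 and 25 of 35 *Top2a*-positive cells, against 6.36% and 6.16% of vascular and 3.49% and 2.47% of matrix cells. The summed level of 8 macrophage and other immune markers had a median of 0 in every class of both tumors, with a range up to 537.8 RPKM in vascular and 498.2 RPKM in matrix cells. Among them *Csf1r* was read in 12.8% and 8.64% of matrix cells against 0.424% and 0% of vascular cells, and *C1qa* in 3.49% and 3.70% against 0% and 0.474%. *Ptprc* had no read in matrix cells. Of 6 endothelial markers, *Pecam1* and *Cdh5* had no read in vascular cells, whereas *Flt1* was read in 70.3% and 79.1% of them and *Emcn* in 35.6% and 51.2%. The endothelial list summed to a median of 40.8 and 81.99 RPKM in vascular cells and reached 100 RPKM in 77 and 100 of them, against 0 and 2 matrix cells. The summed level of 8 epithelial markers reached 100 RPKM in 50 vascular, 16 matrix and 8 *Top2a*-positive cells of tumor 2, against 18, 9 and 0 such cells of tumor 1. Among them *Wfdc18* was read in 15.7% of vascular cells of tumor 1 and 47.4% of those of tumor 2, whereas *Krt14* was read in 3.39% and 0.948% and *Krt5* in 0.847% and 0.474%. *Epcam* (3.39% and 9.005%) and *Krt18* (5.08% and 12.3%) were also read in a larger share of tumor 2 vascular cells, *Krt8* stood at 2.54% and 3.32%, *Cdh1* at 0.424% and 1.42% and *Cldn4* at 0.847% and 0.948%.

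Superoxide dismutases turn superoxide into hydrogen peroxide, in the cytosol (SOD1), the mitochondrial matrix (SOD2) or outside the cell (SOD3). Glutathione peroxidases then reduce hydrogen peroxide or lipid peroxides, and several of them carry selenium as selenocysteine, which is read from a stop codon by a dedicated machinery. Selenoprotein P is secreted and supplies selenium to other tissues, so the group spans enzymes inside the cell, in the secretory pathway and in the extracellular space of the stroma.

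Upstream sequences of RefSeq starts were at hand for 9 of the 10 genes (GRCm38.p6, the assembly of mm10, with *Sepp1* matched as *Selenop*). The gene without one was *Sod3*, which was not searched. A window from 250 bases before to 50 bases after each annotated start was searched on both strands for the core of the antioxidant response element, TGACNNNGC, which NRF2 is known to bind, and for the ATF4-C/EBP composite element, TGATGNAA, of the amino acid response. The 2 genes with a match are printed with the 250 bases before their start, in the direction of transcription, with the match in capitals, together with the first of 3 annotated upstream regions of *Sepp1*, which had neither.
Nupr1, chr7:126625471-126625720, minus strand: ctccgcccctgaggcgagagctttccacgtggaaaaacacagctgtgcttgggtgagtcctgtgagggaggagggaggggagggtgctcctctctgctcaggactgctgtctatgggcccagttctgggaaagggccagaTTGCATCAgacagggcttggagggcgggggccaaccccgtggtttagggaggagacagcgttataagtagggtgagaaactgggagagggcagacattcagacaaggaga
Sod1, chr16:90220512-90220761, plus strand: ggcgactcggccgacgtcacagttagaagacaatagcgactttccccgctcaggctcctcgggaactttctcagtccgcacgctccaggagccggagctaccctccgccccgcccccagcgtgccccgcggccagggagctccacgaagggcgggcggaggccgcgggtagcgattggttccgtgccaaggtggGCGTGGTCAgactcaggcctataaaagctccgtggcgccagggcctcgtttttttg
Sepp1, chr15:3270517-3270766, plus strand: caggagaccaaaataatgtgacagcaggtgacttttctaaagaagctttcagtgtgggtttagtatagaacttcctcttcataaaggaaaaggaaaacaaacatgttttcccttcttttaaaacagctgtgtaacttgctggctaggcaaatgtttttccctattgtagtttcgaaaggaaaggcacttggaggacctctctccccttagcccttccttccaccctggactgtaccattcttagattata

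The composite element of *Nupr1* begins 110 bases before the start and reads on the opposite strand. Such a match was present in 3.97% of 32851 promoter windows. The antioxidant core of *Sod1* begins 56 bases before the start, also on the opposite strand, and 12.4% of the windows held one. No other gene of the 9 had either motif, and the 2 matches did not overlap with each other's motif. A match describes these letters and is not evidence of binding.

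Within vascular cells, the largest class, the mean of log2(RPKM + 1) over cells placed *Sod1* (7.61 ± 0.06, SD, n = 2 tumors) and *Gpx3* (7.59 ± 0.44) highest, followed by *Gpx1* (7.01 ± 0.50). *Sepp1* (5.77 ± 0.05), *Gpx8* (5.45 ± 0.34) and *Gpx4* (4.59 ± 0.25) were intermediate. *Nupr1* (3.65 ± 0.02), *Sod2* (3.09 ± 0.13), *Gstm1* (2.85 ± 0.68) and *Sod3* (1.34 ± 0.26) were lowest. Of the neighbors in this order, *Sod1* and *Gpx3*, *Gpx3* and *Gpx1*, and *Sod2* and *Gstm1* overlapped between tumors, and the others did not. In matrix cells the order began with *Sod1* (7.79 ± 0.15), *Nupr1* (7.49 ± 0.21) and *Sepp1* (7.26 ± 0.72), and *Sod2* was lowest, at 2.93 in both tumors; *Nupr1* and *Sepp1* overlapped.

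**Figure D1:**
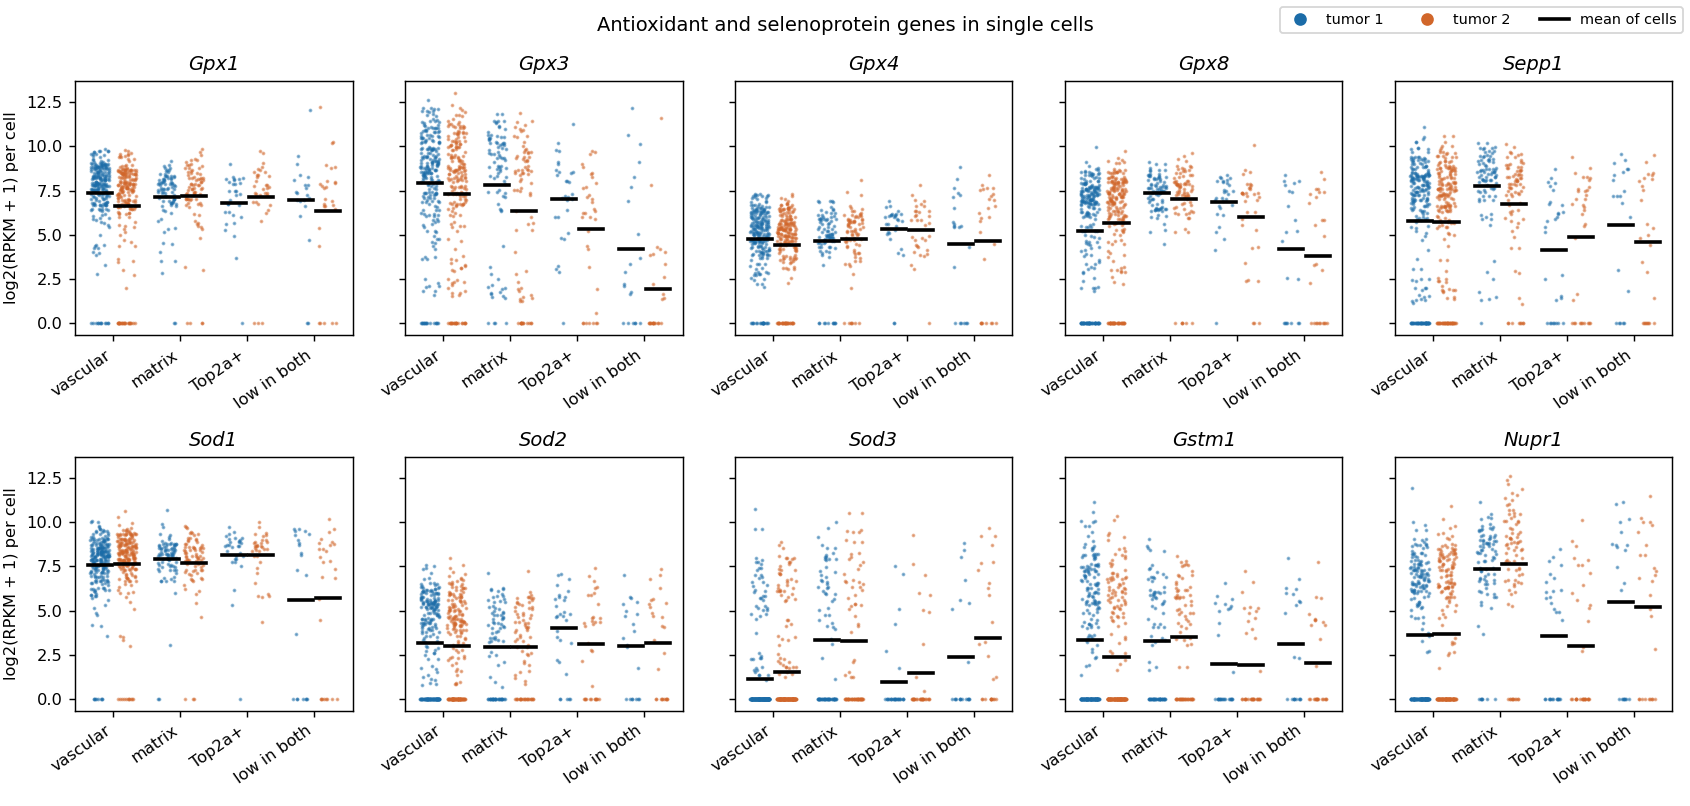
Level of the 10 genes in single cells, as log2(RPKM + 1) on the vertical axis, with 1 point per cell (tumor 1 blue, tumor 2 orange) by cell class and a black bar at the mean of the cells of each tumor. *Nupr1* bars stand at 7.35 and 7.64 in matrix cells against 3.64 and 3.66 in vascular cells, while the *Sod1* bars of vascular, matrix and *Top2a*-positive cells lie between 7.57 and 8.16.

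Counts were summed over the cells of each tumor and class, and the resulting libraries were compared with edgeR's quasi-likelihood test over 11715 genes, with Benjamini-Hochberg adjustment. Values per library are counts scaled to the library's total by edgeR's trimmed mean of M-values (CPM). The first comparison asked which of the genes differ between vascular and matrix CAFs. Here 2 of the 10 genes passed an adjusted p of 0.05, *Nupr1* and *Sod3*, and both were lower in vascular cells. Of all genes tested, 5.27% passed in either direction and 3.01% were lower in vascular cells. The median log2 difference of the 10 genes was -0.16, against 0.02 over all genes tested.

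*Nupr1* (chr7:126623246-126625470, minus strand) encodes a small chromatin-associated protein induced by cell stress. Over matrix cells its RPKM ran from 0 to 2235 with a median of 288.4 in tumor 1, and from 0 to 6334 with a median of 364.7 in tumor 2. Over vascular cells it ran from 0 to 3892 (median 16.4) and from 0 to 1890 (median 8.06). The ranges of both classes began at 0, and their cells overlapped. Summed counts gave 284.9 and 554.9 CPM in the matrix libraries against 73.6 and 81.7 CPM in the vascular libraries, which did not overlap. The log2 difference was -2.43 ± 0.45 (SE; adjusted p = 0.030 by edgeR), with -1.95 in tumor 1 and -2.76 in tumor 2. With the tumor as a block the difference was -2.44 and the adjusted p was 0.055, and with *Rgs5* and *Dcn* cut at 30 RPKM they were -2.44 and 0.082. Without cells whose epithelial markers summed to 100 RPKM or more (epithelial-high cells) it was -2.34, with an adjusted p of 0.070 by edgeR.

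*Sod3* (chr5:52363804-52369738, plus strand) encodes the extracellular superoxide dismutase, which binds to heparan sulfate in the matrix. It was read in a minority of vascular and *Top2a*-positive cells. In matrix cells 45 of 86 in tumor 1 (52.3%, exact 95% interval 41.3 to 63.2) and 42 of 81 in tumor 2 (51.9%, 40.5 to 63.1) held a read. In vascular cells the shares were 22.5% (17.3 to 28.3) and 29.4% (23.3 to 36.03). The intervals of the 2 classes did not overlap in either tumor. Median RPKM was 5.80 and 1.37 in matrix cells (highest 1044 and 1475) and 0 in vascular cells of both tumors (highest 1740 and 460.2). The libraries held 213.3 and 367.9 CPM in matrix against 75.7 and 64.9 CPM in vascular cells, a log2 difference of -2.05 ± 0.38 (adjusted p = 0.031 by edgeR). With each cell scaled to the same total it was -2.15 with an adjusted p of 0.106 by edgeR. Without the epithelial-high cells it was -2.06 with an adjusted p of 0.037.

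The other 8 genes did not pass by edgeR in this comparison. DESeq2 also called *Gpx8*, and limma on mean log2(RPKM + 1) called both *Gpx8* and *Sepp1*, each lower in vascular cells. *Gpx8*, a glutathione peroxidase of the endoplasmic reticulum membrane, had 139.2 and 171.9 CPM in vascular against 253.9 and 261.6 CPM in matrix libraries, which did not overlap, with a log2 difference of -0.73 ± 0.22 (adjusted p = 0.13). *Sepp1* had 526.5 and 460.3 CPM in vascular against 992 and 709.7 CPM in matrix libraries, also without overlap, with a log2 difference of -0.79 ± 0.34 (adjusted p = 0.31). With the ERCC spike-ins as library size, *Gpx8*, *Sepp1* and *Sod1* also passed and were lower in vascular cells, by 1.42, 1.48 and 0.90 on the log2 scale. That scaling shifted the median of all genes tested to -0.68, and 14.6% rather than 42.8% of the genes called were then higher in vascular cells. The median ratio of endogenous to ERCC reads was 5.78 and 6.71 in vascular cells and 14.3 and 15.0 in matrix cells. With limma 25.99% were higher on mean log2(RPKM + 1), and 21.9% with a pseudocount of 0.1.

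The share of cells with a read of *Gpx8* was higher in matrix cells of both tumors, with overlapping intervals in tumor 2. All 86 matrix cells of tumor 1 held a *Gpx8* read and 75 of 81 in tumor 2 (92.6%, exact 95% interval 84.6 to 97.2), against 79.2% (73.5 to 84.2) and 83.4% (77.7 to 88.2) of vascular cells. *Sepp1* was read in 85 of 86 and 73 of 81 matrix cells, and in 80.1% and 81.04% of vascular cells.

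*Gstm1*, a cytosolic transferase that joins glutathione to electrophiles, was spread unevenly over vascular cells. Its RPKM ran from 0 to 2261 with a median of 6.73 in tumor 1 and from 0 to 1297 with a median of 0 in tumor 2. Matrix cells had higher medians, 10.4 and 18.4, but lower maxima, 526.2 and 265.6. In summed counts it was higher in vascular cells, with 148.7 and 93.98 against 77.04 and 70.2 CPM, a log2 difference of 0.72 ± 0.38 (adjusted p = 0.43). On the mean of log2(RPKM + 1) over cells the sign was the reverse, -0.56, so that no direction can be given for this gene between these classes.

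*Gpx3*, the secreted plasma glutathione peroxidase, had the widest range of the abundant genes. In vascular cells the lowest, median and highest RPKM were 0, 400.5 and 6366 in tumor 1 and 0, 292.9 and 8420 in tumor 2. In matrix cells they were 0, 515.7 and 3675, and 0, 282.02 and 3725. Its log2 difference of 0.03 ± 0.72 (adjusted p = 1.00) had the largest standard error of the 10 genes, and it was -0.22 in tumor 1 and 0.37 in tumor 2.

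*Gpx1*, the main cytosolic selenium peroxidase, had 335.9 and 271.2 CPM in vascular and 277.3 and 337.1 CPM in matrix libraries, which overlapped (log2 difference -0.02 ± 0.25). *Gpx4*, which reduces lipid peroxides in membranes, had 47.4 and 39.2 against 49.3 and 44.9 CPM (-0.12 ± 0.23). *Sod1* had 207.2 and 229.6 against 260.1 and 242.98 CPM (-0.20 ± 0.22). *Sod2* had 120.99 and 113.2 CPM in vascular against 99.8 and 82.3 CPM in matrix libraries (0.36 ± 0.33), and its adjusted p of 0.73, like those of *Gpx1* (0.99), *Gpx4* (0.91) and *Sod1* (0.80), does not show that the classes were alike.

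**Figure D2:**
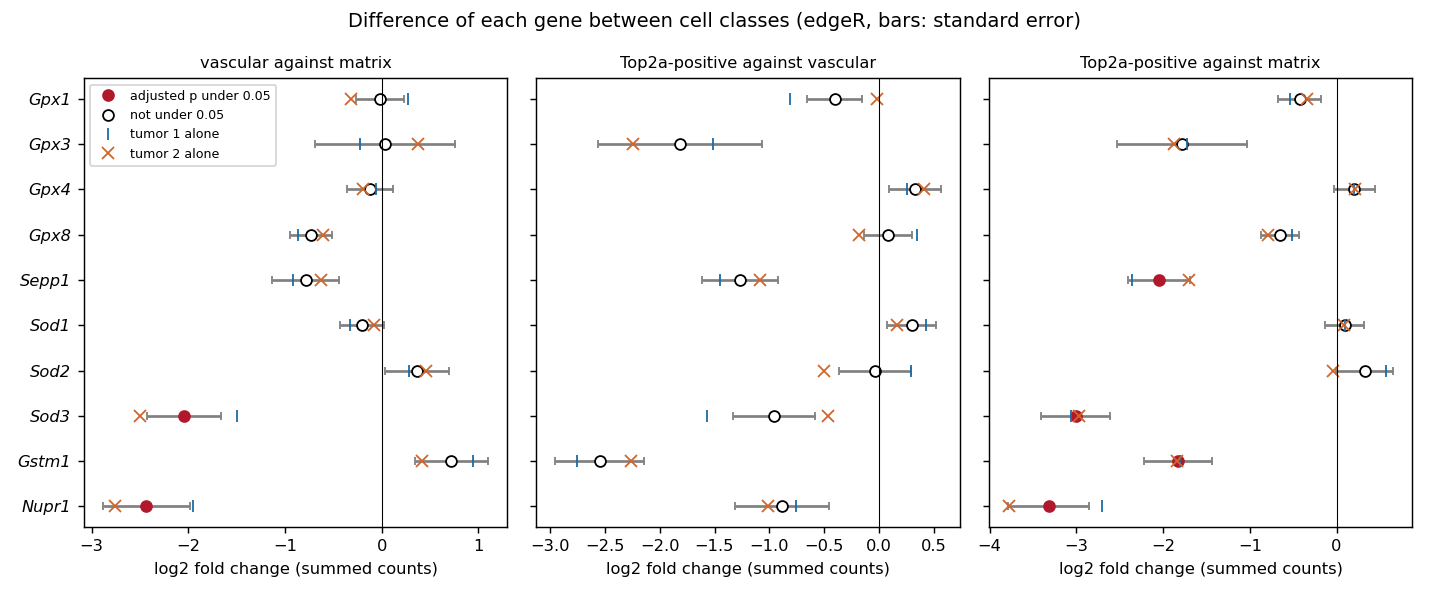
Log2 difference of the summed counts of each gene in the 3 comparisons, with the edgeR estimate as a circle (filled red where the adjusted p is under 0.05), its standard error as a bar, and the difference within tumor 1 (blue tick) and tumor 2 (orange cross). *Nupr1* and *Sod3* lie at -2.43 and -2.05 between vascular and matrix cells, and 4 genes are filled between *Top2a*-positive and matrix cells.

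The next comparison set *Top2a*-positive cells against matrix cells. Of the 10 genes 4 passed, *Nupr1*, *Sod3*, *Sepp1* and *Gstm1*, and all 4 were lower in *Top2a*-positive cells. Over all genes tested 7.08% passed in either direction and 3.45% were lower. The median difference of the 10 genes was -1.21 on the log2 scale, against -0.00 over all genes. With limma on mean log2(RPKM + 1) 61.4% rather than 51.3% of the genes called were higher in *Top2a*-positive cells.

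*Nupr1* stood at 43.6 and 40.5 CPM in the *Top2a*-positive libraries, under all matrix values, with a log2 difference of -3.32 ± 0.47 (adjusted p = 0.013). It was -2.70 in tumor 1 and -3.77 in tumor 2, so that the difference was smaller in tumor 1 alone. *Sod3* stood at 25.4 and 46.8 CPM, a difference of -3.01 ± 0.40 (adjusted p = 0.011), with -3.06 and -2.97 in the 2 tumors. Reads of *Sod3* were found in 6 of 30 and 10 of 35 *Top2a*-positive cells.

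*Sepp1* (chr15:3270767-3280510, plus strand), the selenium carrier, had 193.1 and 217.4 CPM in *Top2a*-positive libraries against 992 and 709.7 CPM in matrix libraries, a difference of -2.05 ± 0.36 (adjusted p = 0.023). Its median RPKM was 48.3 and 93.6 in *Top2a*-positive against 330.3 and 228.1 in matrix cells. *Gstm1* (chr3:108012250-108017973, minus strand) had 21.9 and 19.6 CPM, a difference of -1.83 ± 0.39 (adjusted p = 0.042), with -1.81 and -1.84 in the 2 tumors. The highest *Gstm1* value among *Top2a*-positive cells was 94.6 RPKM in tumor 1 and 148.1 RPKM in tumor 2, against 526.2 and 265.6 RPKM in matrix cells. Without the epithelial-high cells 2 of the 4 passed, *Nupr1* and *Sod3*. The adjusted p by edgeR was then 0.051 for *Sepp1* (-1.98) and 0.053 for *Gstm1* (-1.87). With each cell scaled to the same total, *Nupr1* and *Sepp1* passed and *Sod3* (-2.56, adjusted p = 0.062) and *Gstm1* (-2.02, adjusted p = 0.086) did not, and with *Top2a* cut at 1 RPKM the adjusted p of *Gstm1* was 0.061.

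The remaining genes did not pass between *Top2a*-positive and matrix cells. *Gpx3* had 477.3 and 262.7 against 1583 and 961 CPM, without overlap (-1.78 ± 0.75, adjusted p = 0.20; 0.029 with the other classes cut at 300 RPKM), and *Gpx8* 177.3 and 151.8 against 253.9 and 261.6 CPM, also without overlap (-0.65 ± 0.22, adjusted p = 0.13). *Gpx1* (-0.42 ± 0.25), *Gpx4* (0.20 ± 0.24), *Sod1* (0.09 ± 0.22) and *Sod2* (0.32 ± 0.33) differed less.

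Because most *Top2a*-positive cells were *Rgs5*-high, they were also set against vascular cells. None of the 10 genes passed by edgeR, where 0.222% of all genes passed in either direction and 0.205% were higher in *Top2a*-positive cells. The unadjusted p was under 0.05 for 4 of the 10 genes, and DESeq2 called 2, *Gstm1* and *Sepp1*, both lower. *Gstm1* had the largest difference, with 21.9 and 19.6 CPM against 148.7 and 93.98 CPM in vascular libraries (-2.55 ± 0.40, adjusted p = 0.086 by edgeR), and its libraries did not overlap. *Sepp1* (-1.27 ± 0.35, adjusted p = 0.29 by edgeR) and *Gpx3* (-1.82 ± 0.75, adjusted p = 0.51) were lower in both tumors without passing. So were *Sod3* (-0.96 ± 0.37, adjusted p = 0.48), *Nupr1* (-0.89 ± 0.43, adjusted p = 0.61) and *Gpx1* (-0.41 ± 0.25). *Gpx4* (0.33 ± 0.24) and *Sod1* (0.30 ± 0.22) were higher in both, also without passing. The median of the 10 genes was -0.65 on the log2 scale and -0.01 over all genes. With spike-in totals in place of library totals the all-gene median became 0.74, and *Gpx4* and *Sod1* passed as higher (1.09 and 1.05) and *Gstm1* as lower (-1.78). The comparisons share libraries, so that their values are not independent of each other.

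Cells differ in depth, so each was also thinned at random to 50000 endogenous reads, which left out 2 to 13 cells of each class and tumor. After thinning, *Nupr1* was read in 91.1% and 85.7% of matrix cells in tumors 1 and 2, in 48.5% and 50.0% of vascular cells, and in 57.1% and 33.3% of *Top2a*-positive cells. *Sod3* was read in 48.1% and 48.1% of matrix cells, against 19.9% and 24.2% of vascular and 17.9% and 21.2% of *Top2a*-positive cells. *Sepp1* was read in 93.7% and 88.3% of matrix, 75.8% and 77.3% of vascular, and 64.3% and 63.6% of *Top2a*-positive cells. For these 3 genes the matrix shares were above those of both other classes in each tumor, also with all reads, where they were 91.9% and 86.4% for *Nupr1*, 52.3% and 51.9% for *Sod3* and 98.8% and 90.1% for *Sepp1*. *Gpx8* had the same order with thinned and with all reads. Its thinned shares were 100% and 94.8% of matrix, 72.3% and 79.8% of vascular, and 96.4% and 87.9% of *Top2a*-positive cells.

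*Sod1* and *Gpx1* had a read in no fewer than 90.4% of cells in any of these 3 classes, in both tumors, after thinning. For *Gstm1* the thinned shares of vascular (49.4% and 37.9%) and matrix cells (45.6% and 55.8%) changed places between the tumors, but with all reads the matrix shares (58.1% and 64.2%) were above the vascular ones (52.97% and 39.3%) in both. After thinning *Gpx3* was the only gene of the 10 with a higher share in vascular than in matrix cells of both tumors, 91.8% and 84.3% against 79.7% and 74.03% of matrix cells, although its summed counts did not separate the classes. With all reads this order did not hold for *Gpx3* in tumor 1, where it was read in 93.2% of vascular and 95.3% of matrix cells, against 90.05% and 83.95% in tumor 2. The intervals count cells, which are not replicates, so they cover counting error and leave out the spread between tumors. Reads without molecular identifiers are also not independent molecules.

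**Figure D3:**
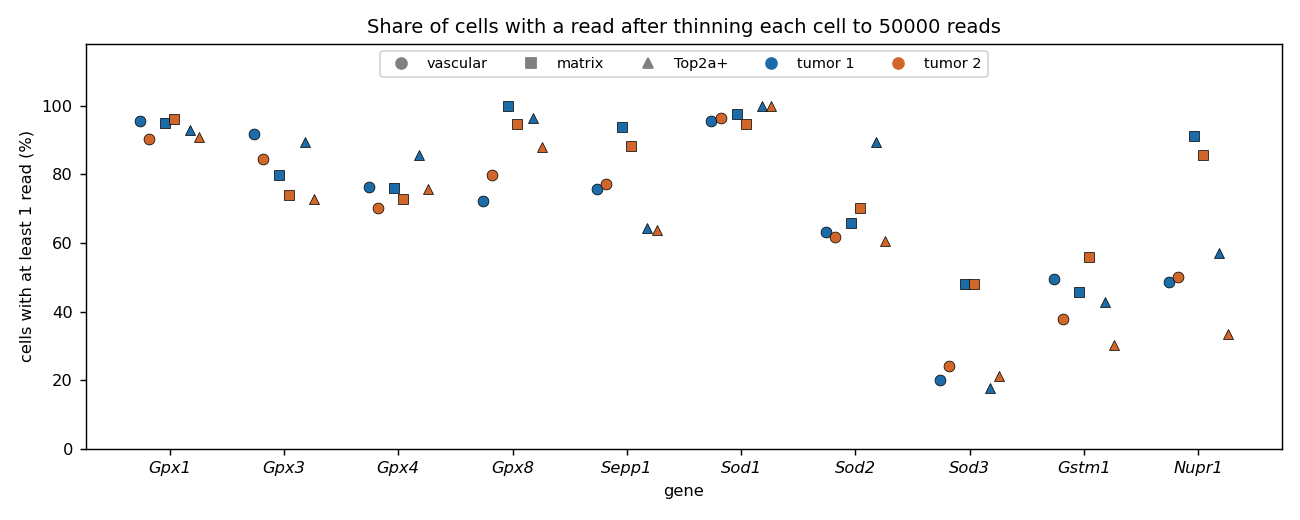
Share of cells with at least 1 read of each gene, in percent, after thinning every cell to 50000 reads, for vascular (circles), matrix (squares) and *Top2a*-positive cells (triangles) of tumor 1 (blue) and tumor 2 (orange). *Nupr1*, *Sod3*, *Sepp1* and *Gpx8* show the matrix squares on top in both tumors, whereas the *Sod1* symbols lie between 94.8% and 100%.

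The wider pathways were followed with a list of 96 genes in 8 roles, the 10 genes included, of which 94 were in the tables and 77 were expressed enough to be tested. Between vascular and matrix cells 5 were higher and 7 lower in vascular cells, and 65 did not pass, where 5.27% of all genes tested passed in either direction and 3.01% were lower. Their median log2 difference was -0.15. Leaving out the 10 genes, 5 of 67 were higher and 5 lower, and no role moved in 1 direction only with more than 1 gene.

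Among the glutathione S-transferases 2 were higher and 2 lower of 15 tested. The microsomal transferases took opposite directions. *Mgst3* stood at 133.9 and 138.4 CPM in vascular against 14.8 and 12.6 CPM in matrix libraries (3.31 ± 0.30, adjusted p = 0.004). *Mgst1*, its relative in the same family of membrane enzymes, stood at 35.7 and 25.4 against 319.4 and 331.7 CPM (-3.41 ± 0.57, adjusted p = 0.022). The kappa-class transferase *Gstk1* was higher in vascular cells (31.5 and 23.8 against 6.89 and 6.29 CPM, 2.07 ± 0.40, adjusted p = 0.036).

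In glutathione recycling, *Ggt5*, a surface enzyme that cleaves glutathione and leukotriene C4, was higher in vascular cells, at 216.1 and 184.5 against 24.6 and 21.7 CPM (3.11 ± 0.23, adjusted p = 0.002). *Slc3a2*, the heavy chain that pairs with the cystine transporter, was lower (-1.54 ± 0.32, adjusted p = 0.044), with an adjusted p of 0.070 when the tumor was a block. Among peroxiredoxins *Prdx5* was higher (1.06 ± 0.20, adjusted p = 0.034; 0.051 with the block) and *Prdx6*, the member that acts with glutathione, lower (-1.08 ± 0.20, adjusted p = 0.031). The heme oxygenase *Hmox2* was higher (1.29 ± 0.24, adjusted p = 0.029). With ERCC totals as library size *Prdx5*, *Gstk1* and *Hmox2* kept their sign and lost the call, with adjusted p of 0.32, 0.061 and 0.15.

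The selenoproteins other than glutathione peroxidases gave 1 call of 17 tested, a share near the 5.27% of all genes, so that nothing is read from it for the group. The gene was *Dio2*, the deiodinase that activates thyroid hormone. It had 105.9 and 46.1 CPM in the matrix libraries and 0.040 and 0.634 CPM in the vascular ones (adjusted p = 0.033; 0.056 with the tumor as a block). The 7 genes tested for selenoprotein synthesis and selenium supply gave no call in either direction (median 0.31). *Nfe2l2*, which encodes NRF2, had 191.1 and 198.01 CPM in vascular against 260.3 and 210.8 CPM in matrix libraries (-0.28 ± 0.33, adjusted p = 0.82), and its inhibitor *Keap1* gave -0.41 ± 0.36 (adjusted p = 0.71); these 2 were named after their values were seen.

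Between *Top2a*-positive and matrix cells 4 of the 77 genes were higher and 8 lower in *Top2a*-positive cells, 4 and 4 of 67 without the 10 genes, where 7.08% of all genes tested passed in either direction and 3.45% were lower. *Ggt5* (2.51 ± 0.23, adjusted p = 0.004), *Mgst3* (2.76 ± 0.30, adjusted p = 0.007) and *Gstk1* (2.68 ± 0.41, adjusted p = 0.017) were higher, and *Mgst1* (-3.56 ± 0.58, adjusted p = 0.019) and *Prdx6* (-1.17 ± 0.20, adjusted p = 0.022) lower. *Txn1*, the cytosolic thioredoxin, was higher at 402.1 and 405.8 against 198.5 and 241.4 CPM (0.88 ± 0.19, adjusted p = 0.044; 0.055 with the block). *Dio2* had no read in either *Top2a*-positive library, and against a limit of 3 reads over both its unscaled CPM was at least 350.3-fold higher in matrix cells of both tumors summed, and at least 208.2-fold in those of tumor 2 alone. None of the 77 genes passed between *Top2a*-positive and vascular cells by edgeR.

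**Figure D4:**
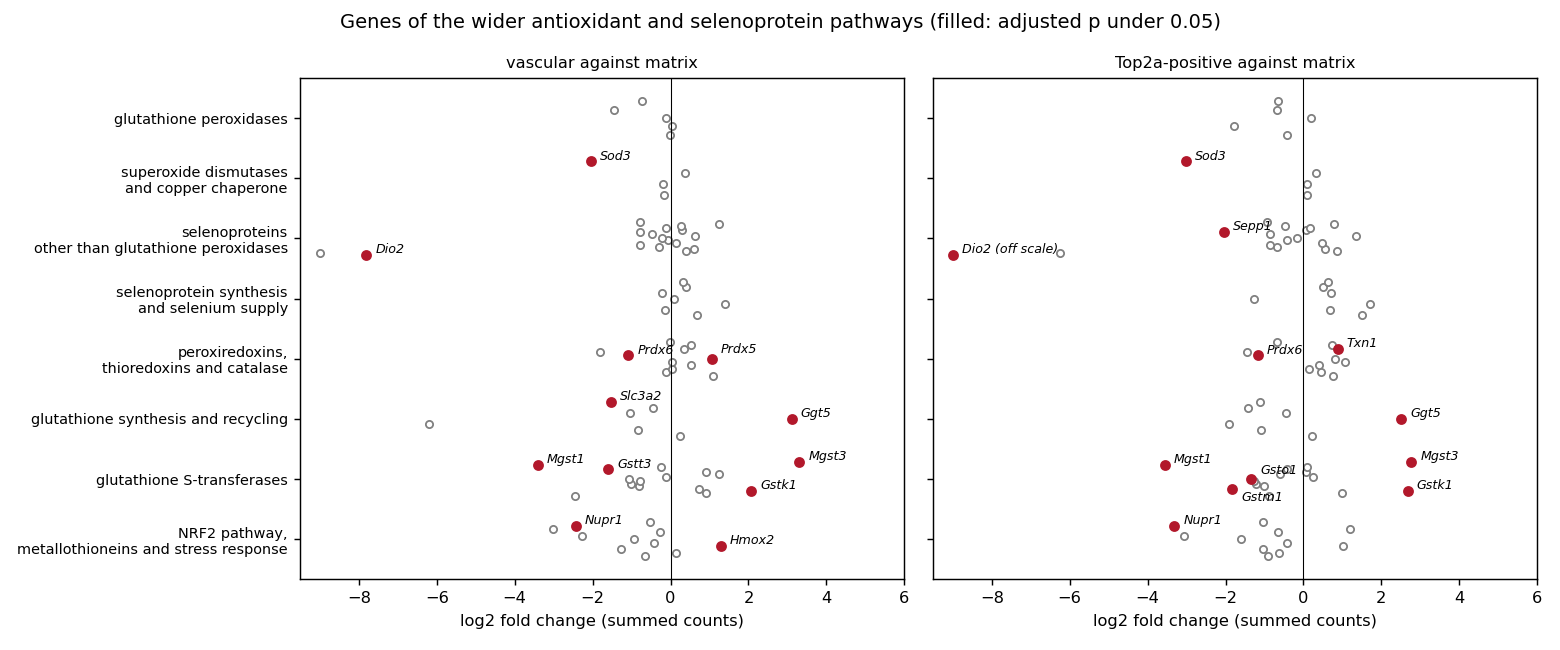
Log2 difference of the summed counts for the 77 tested genes of the wider pathways by role, between vascular and matrix cells and between *Top2a*-positive and matrix cells, with genes of adjusted p under 0.05 filled and named and values beyond the axis drawn at its edge. Filled genes lie on both sides of 0 in each panel, with *Mgst3* at 3.31 and *Mgst1* at -3.41 in the panel of vascular against matrix cells.

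Within a class the genes were only loosely tied to each other. Pearson's r of log2(RPKM + 1) was taken over the cells of each tumor, and pairs were ranked by the mean r of the 2 tumors. The closest in matrix cells were *Sepp1* and *Nupr1* (0.45 over 86 cells and 0.31 over 81) and *Sepp1* and *Sod1* (0.41 and 0.33). Within 1 tumor other matrix pairs were closer. *Gpx1* and *Sod1* had 0.56 in tumor 2 and 0.090 in tumor 1, and *Sod1* and *Nupr1* 0.46 in tumor 1 and 0.20 in tumor 2. In vascular cells the closest pair was *Gpx3* and *Sepp1* (0.41 and 0.19). The genes of a cell share its depth. In matrix cells the r with the cell's reads was 0.47 and 0.31 for *Sod1*, 0.16 and 0.34 for *Sepp1* and 0.21 and 0.15 for *Nupr1*, so that some of these values were as large as those of the pairs. In vascular cells it was 0.026 and 0.18 for *Gpx3* and 0.19 and 0.10 for *Sepp1*.

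The genes most like each member over vascular cells were named where the mean r of the 2 tumors reached 0.4. For *Gpx1* these were the myosin light chain *Myl12a* (0.41 and 0.45) and *Acta2*, smooth muscle actin (0.43 and 0.40), while the r of *Gpx1* with the reads of these cells was 0.38 and 0.37. For *Sod3* it was the collagen receptor subunit *Itga11* (0.42 and 0.39), and for *Gstm1* the eosinophil chemokine *Ccl11* (0.45 and 0.41). No gene reached 0.4 for the other 7.

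Reads of 43 bases cannot always be assigned to 1 gene. Of the 43-base windows in the GENCODE transcripts of each gene, 36.2% were shared with other genes for *Gpx4*, where the partners include *Gpx4-ps2*, 22.8% for *Sod2* and 21.9% for *Gstm1*, whose partners include *Gstm3*, so that the levels of these 3 are uncertain. The share was 4.12% for *Sod1*, 1.11% for *Nupr1*, 0.173% for *Sepp1* and 0 for *Gpx1*, *Gpx3*, *Gpx8* and *Sod3*. Exons of *Sepp1* overlap those of the antisense gene *Ccdc152* over 15.4% of the exonic bases, and the protocol does not mark strand, so that reads of these genes there cannot be told apart.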

How the data were processed

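Single cells of 2 tumors were sequenced by Smart-seq2 in 768 wells. The deposited counts are whole reads per gene, which the authors obtained from 43-base single-end reads aligned by STAR to mm10 and assigned to RefSeq genes. For the deposited RPKM the authors used rpkmforgenes, and the values match scaling to all reads of a well, ERCC spike-ins included (median variation of the implied gene length 1.09%, against 8.30% for endogenous reads). Each tumor is 1 plate. All columns matched a well, so 0 were unused.

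The 10 genes, the pathway list, the markers and the tests were chosen with earlier results of these data known. Wells under 10000 endogenous reads (41) were left out by this single limit, in place of the authors' set of quality metrics. Classes were cut on *Rgs5*, *Dcn* and *Top2a* as given above. Doublets were not called; 20 cells high in both *Rgs5* and *Dcn* stayed in, and 1 alternative removes them. Counts were summed per tumor and class into 8 libraries of 3783743 to 48531775 reads. Genes averaging 1 RPKM or more were tested with edgeR 4.0.16 (TMM, glmQLFit, glmQLFTest, no covariate, all 8 libraries in 1 fit, Benjamini-Hochberg adjusted p under 0.05). Cells are not replicates, and p-values rest on the spread between 2 tumors. Classes from 1 tumor share an animal and are paired. The deviations from class means of same-tumor libraries correlated by 0.053 to 0.171, and the tumor as a block is an alternative. Others were DESeq2 1.42.0, its size factors, ERCC totals, other limits for classes, wells and genes, equal weight per cell, limma 3.58.1 on mean log2(RPKM + pseudocount), all reads in place of thinned reads for shares of cells and an adjusted p of 0.001. Leaving out the epithelial-high cells (markers summing to 100 RPKM or more) was added after the data were seen. Cells with a lower sum stayed in. The test script was checked on simulated counts. Intervals for shares are exact binomial, 95%.

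Named were all 10 genes, up to 3 pathway genes per role past the threshold by size of difference, and up to 3 genes of mean r of at least 0.4 per member. *Gstt3* and *Gsto1* also passed and fall outside these limits. Gene positions and upstream sequences are RefSeq's (GRCm38.p6), and exons and transcripts are GENCODE's (release M21).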

Additional observations from a re-analysis of the deposited data

Results flagged for a closer look

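In 5 of the 30 differences of the 10 genes, the 2 tumors took opposite directions. None of the 5 passed the test over both tumors, and the difference between the tumors was not tested. For *Gpx1* between vascular and matrix cells, the log2 difference was 0.28 in tumor 1 and -0.31 in tumor 2, apart by 0.59. For *Gpx3* in the same comparison it was -0.22 and 0.37, apart by -0.59. *Gpx8* between *Top2a*-positive and vascular cells gave 0.35 and -0.18, apart by 0.53. *Sod2* gave 0.29 and -0.50 between *Top2a*-positive and vascular cells, apart by 0.79, and 0.57 and -0.04 between *Top2a*-positive and matrix cells, apart by 0.61. Each tumor is 1 plate, so tumor and plate cannot be told apart in these values.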

How the results depend on the processing

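With 2 tumors, a test with 1 left out has no residual spread, so calls were not counted without a tumor, and a difference without 1 tumor is that of the other. Calls among the 10 genes between vascular and matrix cells (2) became 1 with the tumor as a replicate block. They were also 1 with *Rgs5* and *Dcn* cut at 30 RPKM, without epithelial-high cells and with equal totals per cell. They were 5 with ERCC totals, 3 with DESeq2, 4 under limma with either pseudocount and 0 at an adjusted p of 0.001. Between *Top2a*-positive and vascular cells (0) they became 2 with DESeq2, 1 without a filter on genes, 3 with ERCC totals and 1 at a cut of 300 RPKM. Between *Top2a*-positive and matrix cells (4) they became 2 with equal totals and without epithelial-high cells, and 0 at 0.001. The block changed no other call of the 10 genes. The share of all tested genes called between vascular and matrix cells (5.27%) was 12.7% with DESeq2, 12.8% with ERCC totals, 8.997% at 300 RPKM, 15.04% and 16.9% under limma (pseudocounts 1 and 0.1) and 0.0598% at 0.001. Between *Top2a*-positive and vascular cells (0.222%) it was 4.20% with DESeq2, 0.603% unfiltered and 0 with the block in edgeR (1122 genes at an unadjusted p under 0.05). It was 6.40% with ERCC totals, 0.128% at 30 RPKM, 0.580% at 300 RPKM and 0.145% in wells of at least 50000 reads. It was 0 without epithelial-high cells (1020 genes unadjusted), 8.78% and 11.003% under limma and 0 at 0.001. Between *Top2a*-positive and matrix cells (7.08%) it was 18.5% with DESeq2, 12.5% at 300 RPKM and 4.52% without epithelial-high cells. It was 4.70% with equal totals, 23.06% and 22.1% under limma and 0.0256% at 0.001.

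Signs turned only for genes that had not passed. Between vascular and matrix cells *Gpx1* turned (0.024 unfiltered and 0.025 at 300 RPKM). *Gpx3* turned too (-0.66 with ERCC totals, -0.017 without cells high in both markers, -0.085 without epithelial-high cells, -0.10 with equal totals). So did *Sod2* (-0.33 with ERCC totals) and *Gstm1* (-0.56 and -1.04 under limma). Against vascular cells *Gpx1* gave 0.36 with ERCC totals and 0.021 under limma with 0.1, and *Sod2* 0.71 with ERCC totals, 0.041 for *Rgs5*-high *Top2a*-positive cells, 0.14 with equal totals and 0.44 and 0.73 under limma. Against matrix cells *Sod1* gave -0.043 with equal totals. The cause of these changes was not tested. Of the 10 genes' shares of cells, 18 thinned values lay outside the exact binomial interval of the share with all reads and 62 lay inside it. DESeq2's size factors, a *Top2a* cut of 1 RPKM, *Rgs5*-high *Top2a*-positive cells alone and removal of cells high in both markers left all 6 counts within 1.5 times. *Top2a*-positive libraries were the shallowest of the 3 classes compared, at 7700379 and 7993758 reads.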

Other observations

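The 21 and 27 cells low in both *Rgs5* and *Dcn* were compared with no other class. Their libraries were part of the same fit and so of its estimate of spread. These cells were mixed. The 9 matrix markers other than *Dcn* summed to medians of 502.4 and 263.6 RPKM and reached 100 RPKM in 15 of 21 and 20 of 27 of these cells, and the 9 vascular markers other than *Rgs5* did so in 8 and 8. The 6 developmental markers (*Scrg1*, *Sox9*, *Sox10*, *Mia*, *Trf*, *Spint2*) summed to a median of 6.02 RPKM in tumor 1 and 2277 RPKM in tumor 2. *Alas2*, a heme synthesis enzyme, was read in 1 and 5 cells. *Hbb-b1*, *Hbb-bs*, *Hba-a1* and *Hba-a2* had no read in any class of either tumor, so that their absence is not particular to these cells. *Gpx3* was scarce in these cells, with a median of 6.47 RPKM in tumor 1 and 0 in tumor 2, and was read in 15 of 21 and 13 of 27. *Nupr1* had medians of 175.6 and 101.3 RPKM there, and *Sod3* was read in 8 of 21 and 16 of 27 cells. *Gpx4* reached 122.3 and 113.1 CPM in their libraries, where the other 6 libraries ranged from 39.2 to 56.5 CPM. The highest single *Gpx1* values of all cells, 4315 and 4714 RPKM, were also in this class. Among the wider pathways, *Mgst1* stood at 396.997 and 562.8 CPM and *Slc3a2* at 311.2 and 565.1 CPM in these libraries. With 21 and 27 cells of different marker content, these values describe the wells and no cell type.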
